A study of Homo sapiens with 9 samples.

Results

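The genes of the AP-1 and BATF transcription factors were examined in RIVA cells, an established human lymphoma line of the activated B-cell (ABC) type of DLBCL. They were chosen by name, with earlier results of these data known: JUN, JUNB, JUND, FOS, FOSB, FOSL1, FOSL2, BATF, BATF3 and ATF3, which are 10 of the 60656 genes in the count table. All cells had been infected with the doxycycline-inducible lentiviral vector pLVX-TetOne, either empty (vector, labelled BCL10 wild type) or coding for BCL10 S136X, a truncation, or BCL10 R58Q, a substitution in the CARD domain. There were 3 replicates of each, and all 9, vector included, received doxycycline at 200 ng/mL for 24 h (1 label field gives the unit as ng/uL). All 3 groups keep their own endogenous BCL10, no group expressed a wild-type BCL10 construct, and whether a line was 1 clone or a selected pool is not given in the sources used here.

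AP-1 is a family of dimers of basic leucine zipper proteins. JUN proteins can pair with themselves or with FOS proteins, whereas FOS proteins need a JUN partner to bind DNA. BATF and BATF3 lack the activation domains of FOS, pair with JUN proteins, and in lymphocytes bind composite DNA elements together with IRF4 or IRF8. BCL10 binds MALT1 and passes B-cell receptor signals to NF-kB and to the JNK kinases that phosphorylate JUN.

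The libraries held 28047713 to 33122267 counts (median 32185418). BCL10 itself, counted from the endogenous gene and the construct together, was at 26.3 to 38.8 CPM (counts scaled to library size) in vector, 345.1 to 488.4 in S136X and 309.5 to 357.1 in R58Q, so all 6 mutant libraries lay above all 3 vector libraries. The column names of the table give the vector and S136X libraries 1 date and the R58Q libraries a later one, so R58Q and the later date cannot be told apart. The summed CPM of 8 B-cell markers was 3829 to 4454 in vector, 3711 to 4696 in S136X and 3621 to 4456 in R58Q, a sum that can hide changes of single markers, given below. Of 14 markers of T cells, myeloid cells, stroma and other cells, HBB was at 0 in all libraries, and the sum over the list was 64.4 to 78.8 CPM in vector, 62.7 to 83.9 in S136X and 65.6 to 89.0 in R58Q. The summed CPM of 16 heat shock and harvest stress genes was 4015 to 4618 in vector, 4764 to 5293 in S136X and 4774 to 5128 in R58Q. Vector did not overlap either mutant, as for 31.3% (S136X) and 40.3% (R58Q) of all single genes tested. The largest parts of this sum were HSP90AA1 (means of 1943 in vector, 2322 in S136X and 2303 in R58Q) and HSPA8 (1344, 1623 and 1601). Neither gene was called in either mutant at the thresholds given below. The part of the sum in the results for the AP-1 genes was not tested.

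Several of these genes are known to be controlled through AP-1 or ATF elements in their own promoters, so the 250 bases before the RefSeq start sites (build GRCh38.p14) were searched on both strands. Windows were found for 8 of the 10 genes, ATF3 with 2 start sites, which made 9 windows out of 35116 for all genes. FOSL1 and BATF3 had none. The 4 windows below are those of the JUN family and of ATF3, shown because they include every window with a match and, in JUNB, one without, each 5′ to 3′ on the gene's strand with motif matches in capitals.
JUN, chr1:58784048-58784297, minus strand: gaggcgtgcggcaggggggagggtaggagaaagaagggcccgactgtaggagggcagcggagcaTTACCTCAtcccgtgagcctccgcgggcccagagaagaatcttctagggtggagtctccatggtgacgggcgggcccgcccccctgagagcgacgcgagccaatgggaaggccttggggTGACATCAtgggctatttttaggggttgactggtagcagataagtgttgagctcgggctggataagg
JUNB, chr19:12791236-12791485, plus strand: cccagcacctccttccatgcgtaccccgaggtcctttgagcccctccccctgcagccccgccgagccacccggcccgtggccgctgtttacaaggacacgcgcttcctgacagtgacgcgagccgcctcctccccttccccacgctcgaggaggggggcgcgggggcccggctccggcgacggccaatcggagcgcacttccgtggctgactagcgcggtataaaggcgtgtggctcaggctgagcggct
JUND, chr19:18281623-18281872, minus strand: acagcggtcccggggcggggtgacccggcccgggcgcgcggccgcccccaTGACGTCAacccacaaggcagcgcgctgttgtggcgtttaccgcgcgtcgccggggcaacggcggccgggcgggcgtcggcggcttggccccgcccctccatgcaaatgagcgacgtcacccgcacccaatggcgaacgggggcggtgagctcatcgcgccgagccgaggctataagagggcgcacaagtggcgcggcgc
ATF3, first start site, chr1:212565157-212565406, plus strand: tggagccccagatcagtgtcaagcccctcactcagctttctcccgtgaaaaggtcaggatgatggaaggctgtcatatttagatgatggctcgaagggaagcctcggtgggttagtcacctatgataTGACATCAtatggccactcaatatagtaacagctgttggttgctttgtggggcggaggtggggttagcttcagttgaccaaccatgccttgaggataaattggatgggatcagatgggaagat

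The CRE letters TGACGTCA stood in the JUND window, 200 to 193 bases before the start, and in 1.65% of all windows. The related letters TGACATCA, added after the sequences had been seen, stood in the JUN window (67 to 60 bases before the start), in the first ATF3 window (123 to 116 bases before it) and in 2.37% of all windows. TTACCTCA, also added then, stood in the JUN window 186 to 179 bases before the start and in 0.644% of all windows. No match overlapped another. The TRE letters TGAGTCA or TGACTCA, held by 4.2% of all windows, and the NF-kB consensus, held by 5.21%, were found in 0 of the 9 windows. The JUNB window, of the gene with the smallest adjusted p-value among the 10 in R58Q, held none of these letters.

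All 10 genes passed the filter on low counts in each of the 3 comparisons. A gene was called changed where it moved 1.5-fold or more with an adjusted p-value below 0.05 (edgeR quasi-likelihood test, Benjamini-Hochberg adjustment over all genes tested). In S136X against vector, 4 of the 10 were called (JUNB, FOSL1, BATF and BATF3), all higher, where 3.87% of 15530 genes were called and 2.05% were called higher. In R58Q against vector, 6 of the 10 were called, the same 4 with JUN and ATF3, all higher, where 7.63% of 15435 genes were called and 4.09% were called higher. The median log2 fold change of the 10 was 0.62 in S136X and 0.92 in R58Q, beside -0.02 and -0.03 over all genes tested. In S136X, 8 of the 10 did not overlap the vector libraries and lay above them, where 31.3% of all genes did not overlap (2479 above vector, 2387 below). In R58Q, 9 of the 10 lay above the vector libraries, where 40.3% of all genes did not overlap (3259 above vector, 2966 below). Both comparisons use the same 3 vector libraries. The 10 genes were chosen with earlier results of these data known, so the values over all genes are given as a description. In bulk RNA, more cells expressing a gene and more RNA per cell cannot be told apart.

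**Figure D1:**
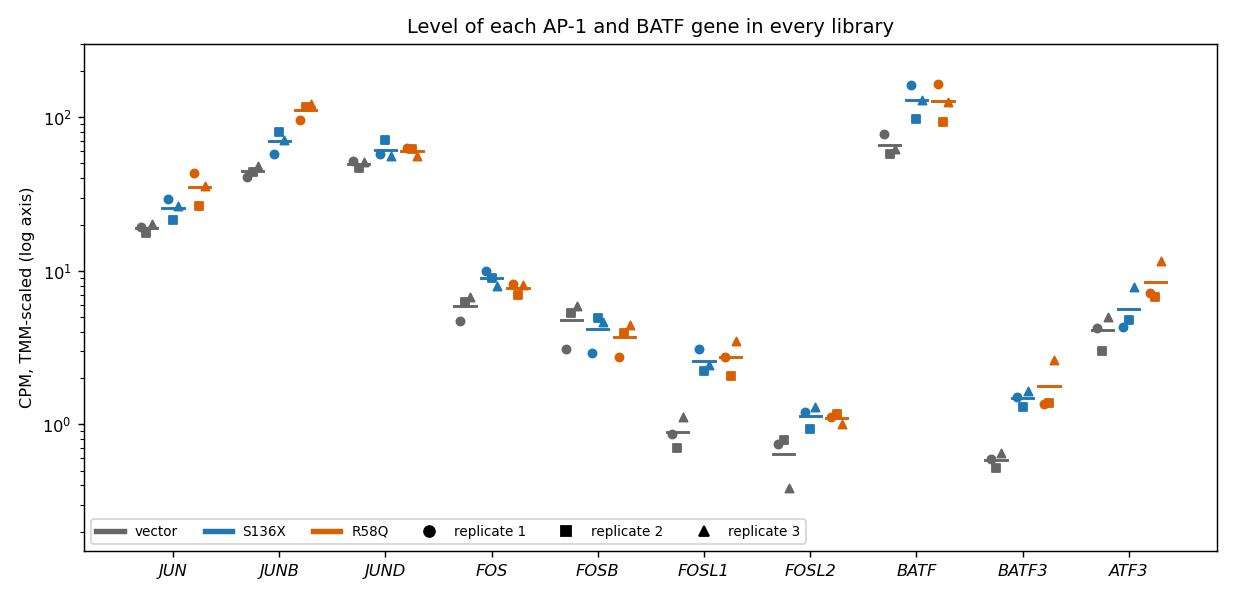
Levels of the 10 genes in CPM (log axis) in each of the 9 libraries, coloured by group, with a marker shape for each replicate number and a line at the group mean. The JUNB libraries of R58Q (95.5 to 122.2 CPM) lie above all vector libraries (40.6 to 48.5 CPM), while the FOSB libraries of the 3 groups overlap.

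Among the JUN genes, JUNB rose in both mutants and JUN in R58Q. JUNB (chr19:12791486-12793315), a JUN protein that can temper or replace JUN in dimers, was at 40.6, 44.0 and 48.5 CPM in vector, 58.02, 79.8 and 71.2 CPM in S136X, and 95.5, 116.3 and 122.2 CPM in R58Q. The 3 groups did not overlap, with R58Q highest. The change against vector was 1.57-fold in S136X (log2 0.65, SE 0.12, adjusted p = 0.0116) and 2.51-fold in R58Q (log2 1.33, SE 0.11, adjusted p = 0.000165). JUN (chr1:58780791-58784047), the main substrate of JNK in the family, was at 19.4, 17.6 and 20.2 CPM in vector, 29.2, 21.6 and 26.3 CPM in S136X, and 43.4, 26.3 and 35.9 CPM in R58Q. All 6 mutant libraries lay above all 3 vector libraries. JUN rose 1.84-fold in R58Q (log2 0.88, SE 0.17, adjusted p = 0.00876), whereas the 1.35-fold difference in S136X missed the threshold (log2 0.43, SE 0.12, adjusted p = 0.0554, over alternatives 0.00408 to 0.194) and was under 1.5-fold in all 14 alternative fits. JUND (chr19:18279694-18281622), often the most steadily expressed JUN protein, was at 51.8, 46.7 and 51.2 CPM in vector, 57.4, 70.9 and 56.1 CPM in S136X, and 62.9, 62.4 and 55.9 CPM in R58Q. It moved least of the 3 in R58Q, by 1.21-fold (adjusted p = 0.0305), under the 1.5-fold minimum, and by 1.23-fold in S136X (adjusted p = 0.0861). Without vector replicate 2 or without S136X replicate 2, JUNB was no longer called in S136X (log2 0.65, adjusted p = 0.0634, and log2 0.56, adjusted p = 0.0265, over alternatives 1.41e-06 to 0.0634). JUNB lies within the span of HOOK2 on the opposite strand (665 to 1129 counts), and whether the counting used strand is not given in the sources used here.

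Of the 4 FOS genes, FOSL1 was the 1 called by edgeR at these thresholds, and it rose in both mutants. FOSL1 (chr11:65892049-65900573), which codes for FRA1, was low in all libraries, with 29, 23 and 38 counts in vector, 91, 72 and 69 in S136X, and 81, 62 and 114 in R58Q. In CPM that was 0.861, 0.703 and 1.12 in vector, 3.11, 2.23 and 2.42 in S136X, and 2.73, 2.07 and 3.49 in R58Q. Every mutant library was above every vector library, and the change was 2.88-fold in S136X (log2 1.53, SE 0.25, adjusted p = 0.00746) and 3.08-fold in R58Q (log2 1.62, SE 0.27, adjusted p = 0.00534). It was called in 14 of 14 alternative fits in each mutant. FOSL1 shares 8.24% of its 31-base words with its pseudogene FOSL1P1, which had 0 to 3 counts per library.

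FOS (chr14:75278826-75282230), the immediate-early partner of JUN, was at 4.72, 6.30 and 6.77 CPM in vector, 9.91, 8.93 and 7.96 in S136X, and 8.19, 6.95 and 8.05 in R58Q. The mutants lay above vector, by 1.51-fold in S136X (log2 0.59, SE 0.16, adjusted p = 0.0538) and 1.3-fold in R58Q (adjusted p = 0.126). In S136X, FOS was called in 5 of 14 alternative fits: DESeq2, limma-voom, no filter, all 9 libraries in 1 fit and the replicate block (adjusted p over alternatives 0.0102 to 0.135). FOSL2 (chr2:28392448-28417317), which codes for FRA2, had 25, 26 and 13 counts in vector, 35, 30 and 37 in S136X, and 33, 35 and 33 in R58Q. Its log2 difference was 0.83 in S136X (SE 0.32, adjusted p = 0.135) and 0.77 in R58Q (SE 0.30, adjusted p = 0.101), and without vector replicate 3, the library with 13 counts, it was 0.58 and 0.51. FOSB (chr19:45467995-45475179), another immediate-early gene, stood apart in direction: it was at 3.09, 5.35 and 5.92 CPM in vector, 2.94, 4.93 and 4.67 in S136X, and 2.76, 3.91 and 4.47 in R58Q. The groups overlapped, with log2 differences of -0.19 in S136X (95% interval -0.82 to 0.44, adjusted p = 0.701) and -0.37 in R58Q (adjusted p = 0.369). FOSB lies within the span of ERCC1 on the opposite strand (2694 to 3521 counts).

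Both BATF genes rose in both mutants. BATF (chr14:75522455-75546993), needed for antibody class switching in B cells, was at 77.6, 57.7 and 62.0 CPM in vector, 163.1, 97.4 and 130.2 CPM in S136X, and 164.1, 93.7 and 124.8 CPM in R58Q. The mutant libraries were all above the vector libraries, and replicate 2 was the lowest of each group. BATF rose 1.98-fold in S136X (log2 0.99, SE 0.18, adjusted p = 0.0118) and 1.94-fold in R58Q (log2 0.95, SE 0.19, adjusted p = 0.0119). BATF3 (chr1:212686417-212699840), a related gene best known from dendritic cells and also expressed in activated lymphocytes, had 20, 17 and 22 counts in vector, 44, 42 and 47 in S136X, and 40, 41 and 86 in R58Q. The mutants lay above vector, and R58Q replicate 3 lay far above the other R58Q libraries. BATF3 rose 2.51-fold in S136X (log2 1.33, SE 0.24, adjusted p = 0.0108) and 3.03-fold in R58Q (log2 1.599, SE 0.32, adjusted p = 0.0122), the latter 1.21 on the log2 scale without R58Q replicate 3. Without vector replicate 2, neither gene passed in either mutant: for BATF log2 0.90 (adjusted p = 0.0636) in S136X and 0.87 (adjusted p = 0.0588) in R58Q, and for BATF3 log2 1.26 (adjusted p = 0.0598) and 1.53 (adjusted p = 0.0578).

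ATF3 (chr1:212565334-212620777), a stress-induced factor that pairs with JUN proteins, rose in R58Q. It was at 4.21, 3.03 and 5.03 CPM in vector, 4.34, 4.77 and 7.79 CPM in S136X, and 7.14, 6.75 and 11.5 CPM in R58Q. S136X overlapped vector and R58Q did not. The change was 2.07-fold in R58Q (log2 1.05, SE 0.25, adjusted p = 0.023) and 1.37-fold in S136X (log2 0.46, SE 0.26, adjusted p = 0.305). The R58Q call was lost without vector replicate 2 (log2 0.88, adjusted p = 0.0854) and without R58Q replicate 3 (log2 0.76, adjusted p = 0.0673), over alternatives from 0.000133 to 0.0854.

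**Figure D2:**
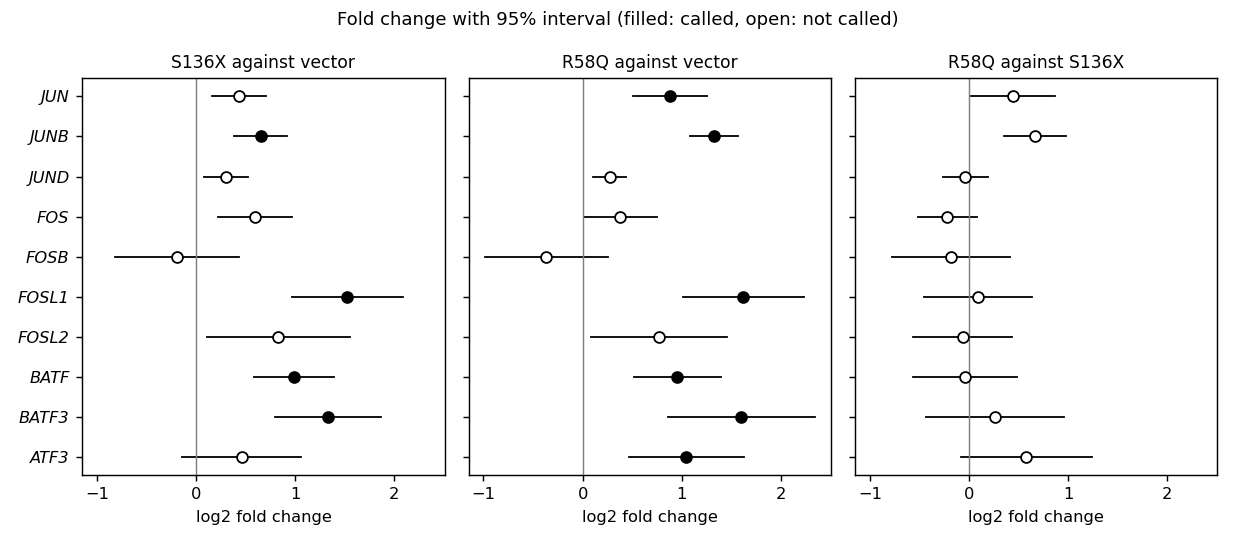
Log2 fold changes of the 10 genes in the 3 comparisons from edgeR, with filled points for genes called, open points for the others and lines for the 95% interval. FOSL1 has the highest estimate in both mutants against vector (1.53 and 1.62), and FOSB is the gene below 0 in both.

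Set against each other, the mutants differed in 0 of the 10 genes by edgeR at these thresholds, where 0.434% of 15195 genes were called. At an unadjusted p under 0.05 there were 2, JUN and JUNB, and DESeq2 called 1. JUNB was 1.59-fold higher in R58Q (log2 0.67, SE 0.14, 95% interval 0.35 to 0.98, adjusted p = 0.0993) and was the 1 gene of the 10 whose R58Q libraries all lay above the S136X libraries (9.45% of all genes). JUN was 1.36-fold higher in R58Q (log2 0.45, 95% interval 0.02 to 0.87, adjusted p = 0.427), and the interval for ATF3 was -0.08 to 1.25 around log2 0.58 (adjusted p = 0.526). For BATF, close to equal in both mutants, the estimate was -0.04 with an interval of -0.56 to 0.49, which allows 0.676-fold to 1.4-fold. The intervals were -0.45 to 0.63 for FOSL1, -0.43 to 0.96 for BATF3, -0.57 to 0.44 for FOSL2, -0.51 to 0.08 for FOS, -0.77 to 0.41 for FOSB and -0.26 to 0.19 for JUND. These intervals do not show that the mutants act alike on any of these genes.

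Libraries with the same replicate number tended to deviate together, least clearly for vector replicate 2, so ratios were also taken within each number. Against vector, 9 of the 10 genes were higher in 3 of 3 numbers in both mutants, and FOSB was lower in 3 of 3. Of all genes tested, 26.7% were higher and 29.5% lower in 3 of 3 numbers in S136X, and 30.2% were higher and 32.6% lower in R58Q. BATF, whose level varied among replicates, had ratios of 2.1, 1.69 and 2.1 in S136X and 2.11, 1.62 and 2.01 in R58Q. For JUNB they were 1.43, 1.81 and 1.47 in S136X and 2.35, 2.65 and 2.52 in R58Q. Between the mutants, R58Q was above S136X in 3 of 3 numbers for JUN (1.49, 1.22 and 1.36), JUNB (1.65, 1.46 and 1.72) and ATF3 (1.65, 1.41 and 1.48), as for 25.3% of all genes, whereas the BATF ratios were 1.01, 0.962 and 0.959.

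When replicate number entered the edgeR fit as a block, FOS joined the calls in S136X (log2 0.60, adjusted p = 0.0201) and FOSL2 in R58Q (log2 0.80, adjusted p = 0.0471, over alternatives 0.0471 to 0.241). This made 5 and 7 genes called, all higher, where 6.53% and 10.7% of all genes were called and 2.9% and 4.79% were called higher. In S136X, JUN (adjusted p = 0.00408) and JUND (adjusted p = 0.0339, over alternatives 0.0303 to 0.27) also passed on the adjusted p-value with the block and stayed under 1.5-fold. Between the mutants, the block called JUNB (log2 0.67, adjusted p = 1.52e-08, over alternatives up to 0.297), where 2.94% of all genes were called and 1.36% were called higher. JUN (log2 0.43, adjusted p = 6.61e-05) and ATF3 (log2 0.58, adjusted p = 0.000447) passed on the adjusted p-value and stayed under 1.5-fold, where 14.6% of all genes had an adjusted p-value under 0.05. All R58Q libraries carry the later date, which the block does not separate from the mutant.

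**Figure D3:**
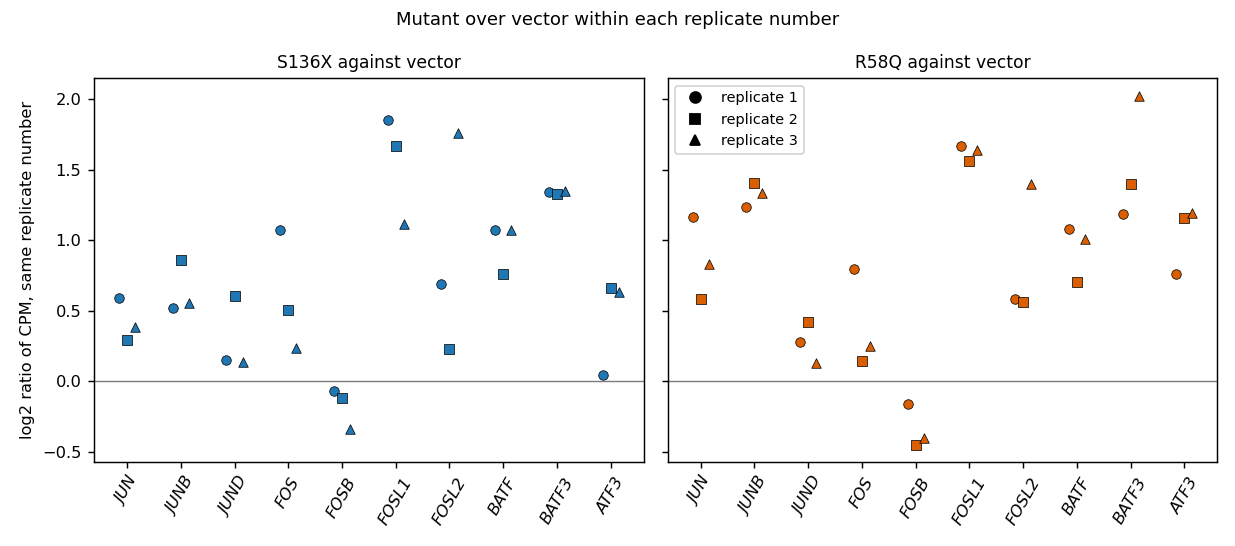
Log2 ratios of each gene within replicate numbers 1, 2 and 3, for S136X against vector (left) and R58Q against vector (right), with 1 marker shape per number. FOSB lies below 0 in all 3 numbers in both mutants, and the other 9 genes lie above 0.

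Levels between genes were compared as CPM per kb of exon, which takes gene length into account. BATF stood highest in each group, with a mean and SD over 3 libraries of 67.1 ± 10.7 in vector, 132.9 ± 33.5 in S136X and 130.1 ± 35.96 in R58Q. JUND followed in vector at 26.8 ± 1.49, with JUNB at 24.4 ± 2.18. Their ranges overlapped across the vector libraries, while JUNB was below JUND within each of them. In R58Q, JUNB at 61.2 ± 7.73 stood above JUND at 32.4 ± 2.10. The ratio of JUNB to JUND was 0.801, 0.963 and 0.970 in vector, 1.04, 1.15 and 1.30 in S136X, and 1.55, 1.91 and 2.24 in R58Q, with no overlap between the groups. The remaining genes followed in vector in the order JUN (5.38), FOS (1.83), ATF3 (1.01), FOSB (0.861), FOSL1 (0.474), BATF3 (0.216) and FOSL2 (0.0894). Of the sum over the 10 genes, BATF made up 52.2% ± 4.31 in vector, 60.2% ± 8.48 in S136X and 53.3% ± 7.61 in R58Q, and the JUN genes 44.3% ± 3.64, 36.6% ± 8.23 and 43.6% ± 7.31. The FOS genes made up 2.57% ± 0.62, 2.32% ± 0.20 and 1.95% ± 0.24, while their summed level was 3.255 ± 0.626, 5.04 ± 0.33 and 4.67 ± 0.58 CPM per kb. The small shares depend on the length used. With the longest annotated transcript in place of all exons, the vector share went from 1.45% to 2.13% for the single gene FOS and from 0.787% to 1.48% for ATF3.

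**Figure D4:**
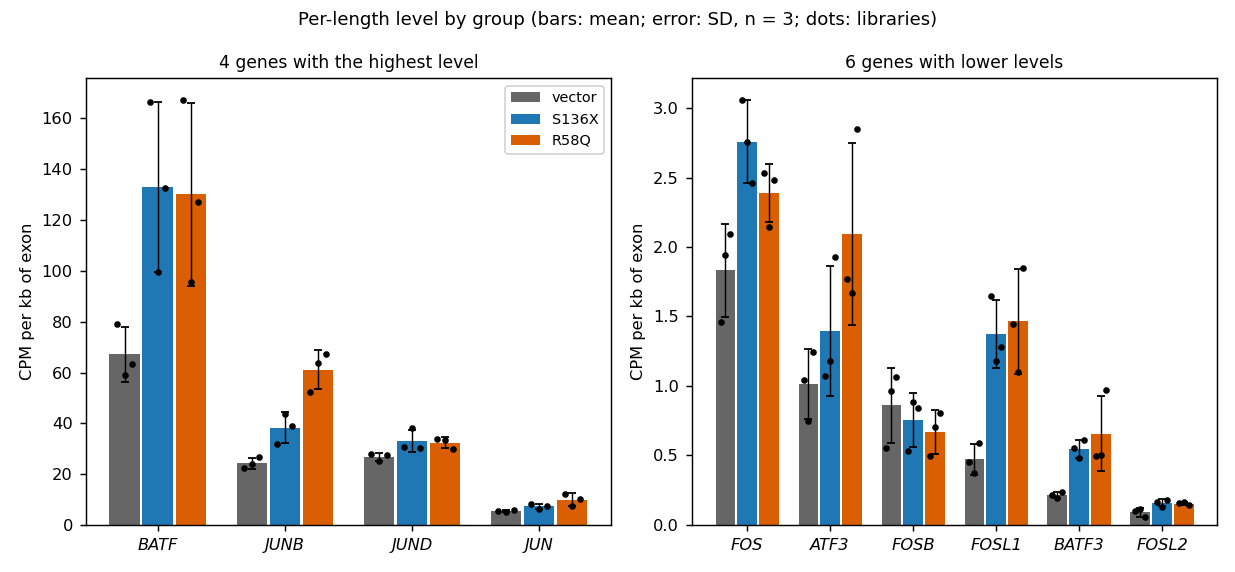
Levels of the 10 genes in CPM per kb of exon by group, on linear axes from 0 with 4 genes on the left and 6 on the right, with bars for the mean, error bars for the SD (n = 3) and dots for libraries. BATF is highest and FOSL2 lowest in each group, and JUNB is below JUND in vector and above it in R58Q.

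Other genes of the pathway were taken from lists. Of 27 other leucine zipper partners tested, 3 rose and 0 fell in each mutant, with medians of 0.06 and 0.14 on the log2 scale. The shares called higher over all genes tested were 2.05% in S136X and 4.09% in R58Q. CEBPD, a C/EBP factor, went from 0.786 to 2.23 CPM in S136X (log2 1.501, adjusted p = 0.00604) and to 4.45 CPM in R58Q (log2 2.49, adjusted p = 0.000377). ATF5 passed in both mutants (log2 0.69, adjusted p = 0.0473, and log2 0.65, adjusted p = 0.041), and lost the call in 9 of 16 alternatives in S136X and 7 of 16 in R58Q. JDP2, a repressor that pairs with JUN, passed in S136X (log2 0.66, adjusted p = 0.0331), a call lost in 6 of 16 alternatives. MAFF passed in R58Q (log2 0.71, adjusted p = 0.014), a call lost in 3 of 16.

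Of 32 JNK, ERK and p38 pathway kinases and adaptors, 1 rose in S136X and 2 in R58Q, with 0 lower and medians of -0.01 and 0.00 on the log2 scale. Over all genes tested, 2.05% and 4.09% were called higher, so these counts are near the background. MAP3K8, which feeds the ERK pathway, was the kinase that rose in both, from 35.6 ± 1.41 CPM in vector to 109.2 ± 13.1 in S136X (log2 1.62, adjusted p = 5.32e-05) and 179.3 ± 35.6 in R58Q (log2 2.33, adjusted p = 4.79e-05). TAB2, an adaptor of TAK1, rose in R58Q (log2 0.61, adjusted p = 0.00158), and fell under 1.5-fold with upper-quartile factors (log2 0.55), with total counts only (log2 0.55) and without R58Q replicate 3 (log2 0.56).

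Of 14 tested genes known to respond to AP-1, 3 rose in S136X and 5 in R58Q, where 1 fell, with medians of 0.45 and 0.30. The shares called higher over all genes tested were 2.05% and 4.09%. The adhesion receptor CD44 went from 128.8 ± 3.50 CPM in vector to 489.9 ± 25.1 in S136X (log2 1.93, adjusted p = 2.64e-06) and 914.9 ± 190.4 in R58Q (log2 2.83, adjusted p = 3.6e-05). The metallothionein MT2A rose by 2.58 and 2.77 and the protease gene PLAU by 1.17 and 1.56 on the log2 scale (adjusted p = 0.000879 or less in the edgeR test of each). CXCL8 passed in R58Q (log2 1.90, adjusted p = 0.0207) and had log2 1.21 in S136X (adjusted p = 0.0637). The 1 that fell was PLAUR, the receptor of PLAU's product (log2 -0.97, adjusted p = 0.0464), a call lost in 8 of 16 alternatives. PLAUR was also low, at 1.32 CPM in vector and 0.674 in R58Q. Whether AP-1 had a part in the changes of these response genes was not tested.

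A list of genes linked to BATF and IRF4 held receptors as well as transcription factors. Of its 14 tested genes, 4 rose in each mutant and 0 fell, with medians of 0.14 and 0.16. The shares called higher over all genes tested were 2.05% and 4.09%. IRF8, which also binds DNA with BATF, was not called (log2 0.16 in S136X and 0.26 in R58Q). Neither were SPI1 (log2 -0.22 and -0.25) and SPIB (log2 0.13 and 0.17). On the edgeR adjusted p-value, IKZF3 was lower in S136X (log2 -0.40, 0.016) and in R58Q (log2 -0.48, 0.00352). STAT3 was higher in R58Q (log2 0.50, 0.00155). Both genes stayed under 1.5-fold. IRF4, which binds DNA together with BATF, went from 737.5 ± 59.8 CPM to 1171 ± 23.2 in S136X (log2 0.67, adjusted p = 0.00153) and 1247 ± 120.9 in R58Q (log2 0.76, adjusted p = 0.00157). BCL6 rose by 0.97 and 0.99, the cytokine receptor IL21R by 1.21 and 1.39, and the receptor CD40 by 0.96 and 1.77 on the log2 scale in S136X and R58Q. Among all the genes on these lists, CD40 was the 1 called between the mutants.

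Of 15 tested heat shock and harvest stress genes, 1 rose and 1 fell in each mutant, where 3.87% and 7.63% of all genes were called. IER3 rose (log2 0.78 in S136X, a call lost without vector replicate 2, and 1.32 in R58Q) and BTG2 fell (log2 -0.68 and -0.79). Of 8 B-cell markers, 0 were called in either mutant by edgeR, DESeq2 or limma-voom, while 4 had an unadjusted p under 0.05 by edgeR in each (medians of -0.19 and -0.33 on the log2 scale). On the edgeR adjusted p-value, CD79B (log2 -0.39, 0.0361) and BLNK (log2 -0.28, 0.0352) were lower in S136X. In R58Q, CD79A (log2 -0.35, 0.0466) and BLNK (log2 -0.55, 0.00414) were lower. All of these stayed under 1.5-fold. Of 4 tested markers of other cell types, beside the same shares of all genes, COL1A1 rose in both (log2 1.65 and 1.77, from 3.86 to 12.1 and 13.2 CPM). PECAM1 fell in S136X (log2 -0.75, adjusted p = 0.0442), a call lost in 6 of 16 alternatives. The part of COL1A1 and PECAM1 in these results was not tested.

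The genes most like the 4 called in both mutants were found by Pearson correlation of log2 CPM over the 9 libraries among 12837 genes. These libraries share groups and replicate numbers, so the values are a description. For JUNB they were HLA-E (0.992), DUSP2 (0.990) and SOCS1 (0.988). For FOSL1 they were ZNF385C (0.986), SGPP2 (0.984) and HNRNPLL (0.984). For BATF they were ECPAS (0.991), CTTN (0.991) and ECHS1 (0.989), and for BATF3 they were TNFSF15 (0.979), TMEM109 (0.976) and IRF4 (0.973).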

How the data were processed

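Poly(A)-selected RNA was sequenced as single-end reads, and fastq files of both runs were combined by the authors. The deposited gene counts were made by the authors on hg38. Their processing notes list cutadapt, STAR and Picard, and the counting program, annotation and strand setting are not given in the sources used here. A second set of columns, the counts divided by 1 number per library, was not used.

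Samples were grouped by their labels. Counts were filtered with filterByExpr (minimum count 10, minimum total 15), scaled with TMM and tested for each pair of groups with the edgeR 4.0.16 quasi-likelihood test (R 4.3.3), with Benjamini-Hochberg adjustment over all genes tested. Calls needed a 1.5-fold change with an adjusted p-value below 0.05. CPM levels used TMM factors. Gene positions are those of the deposited table, and strands and exon lengths came from GENCODE release 29, whose gene bounds differ slightly from the table for some genes, such as JUN. Alternatives were other scalings, DESeq2 1.42.0, limma-voom (limma 3.58.1), other filters and thresholds, 1 fit of all 9 libraries, the replicate block and leaving out each library.

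Replicates were called biological by the study. Replicate counts differed beyond sampling noise in each pair within a group, with a chi-square of 7.21 to 23.0 for each degree of freedom. Deviations of same-numbered libraries from their group means correlated at 0.143 to 0.626 in all 9 pairs. Other pairs ran from -0.459 to 0.169 (median -0.251), so the ranges overlapped. The weakest same-numbered pairs were those of vector replicate 2 with S136X (0.143) and with R58Q (0.163). Deviations cancel out within a group, so negative values among other pairs follow in part from positive ones. The numbers were taken to pair the libraries, least clearly for vector replicate 2. The pairing comes from the data, since no label says what a number shares.

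The members and lists were chosen with earlier results of these data known. Genes named as called from other lists are those called in either mutant, at most 4 a list by the mean absolute log2 fold change. IRF8, SPI1, SPIB, IKZF3, STAT3, CD79A, CD79B, BLNK, HSP90AA1 and HSPA8 were named outside this rule. None of these was called in either mutant. HBB was named as the marker at 0 in all libraries. PLAUR was named after its values were seen, as the 1 response gene that fell. For each member called in both mutants, the 3 best correlated genes with a mean CPM of at least 1 are named.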

Additional observations from a re-analysis of the deposited data

Results flagged for a closer look

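CD40, a receptor gene on the list of genes linked to BATF and IRF4, responded differently to the 2 mutants in a direct test. It was at 283.8 ± 7.74 CPM in S136X and 500.3 ± 44.5 CPM in R58Q (SD, n = 3), a log2 difference of 0.81 (SE 0.07, edgeR adjusted p = 0.00634). Without S136X replicate 3 the log2 difference was 0.82 and was no longer called (adjusted p = 0.0819). R58Q and the later date in the column names cannot be told apart.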

How the results depend on the processing

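Of the 10 genes, an adjusted p-value under 0.01 left 1 called in S136X and 3 in R58Q. Leaving out 1 library gave 1 to 4 in S136X and 3 to 6 in R58Q, the lowest in both without vector replicate 2, when FOSL1 remained in S136X and JUN, JUNB and FOSL1 in R58Q. Between the mutants, DESeq2, no filter, all 9 libraries in 1 fit and the replicate block each called 1, JUNB, and leaving out 1 library called 0 to 0.

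Over all genes, 601 were called in S136X, against 934 with no filter, 1014 with the replicate block, 1574 with no fold minimum, 262 at an adjusted p-value under 0.01, and 279 to 705 leaving out 1 library. In R58Q 1178 were called, against 3243, 596 and 719 to 1248 with no fold minimum, under 0.01 and leaving out 1 library. Between the mutants 66 were called, against 146 with DESeq2, 165 with no filter, 114 with all 9 libraries, 446 with the block, 15 under 0.01 and 5 to 63 leaving out 1 library. Called genes were higher in 53.1% of cases in S136X (41.1% with total counts only) and 53.7% in R58Q (41.2% with upper-quartile factors, 42.6% with total counts only).

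Leaving out 1 library reversed the sign of small log2 differences for FOSB in S136X (0.002593 without vector replicate 3, 0.005803 without S136X replicate 1, lowest -0.4177). Between the mutants it did for BATF (0.1538 without S136X replicate 1, 0.1405 without R58Q replicate 2, lowest -0.2556), JUND (0.08159 without S136X replicate 2, 0.01472 without R58Q replicate 3, lowest -0.09094), FOSL1 (-0.005652 and -0.119, leaving out the same libraries, highest 0.2599), FOSL2 (0.04442 without S136X replicate 3, lowest -0.1932) and BATF3 (-0.1382 without R58Q replicate 3, highest 0.4326). These settings use fewer samples, and otherwise the cause was not tested. FOSL1, FOSL2 and BATF3 had 13 to 114 counts per library. Of the other named genes, leaving out vector replicate 2 or 3 ended the calls of ATF5 in both mutants, JDP2 and PECAM1 in S136X, and MAFF and PLAUR in R58Q, and leaving out vector replicate 1 or 3 ended that of CXCL8 in R58Q. Without vector replicate 2, IER3 was no longer called in S136X (log2 0.73, adjusted p = 0.0592). The block changed no call of the 10 genes beyond FOS, FOSL2 and JUNB as given.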
